A study of Mus musculus with 10 samples.

Results

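The heat shock proteins and their DNAJ cochaperones were examined in hearts of mice with a Noonan syndrome allele of *Rit1*, comparing a MEK inhibitor with its vehicle control. Members were the protein-coding genes whose symbol begins with Hsp90, or with Hspa, Hspb, Dnaja, Dnajb or Dnajc and a digit, together with *Hspd1*, *Hspe1* and *Hsph1*. This rule used names and no measured value, and it found 72 members among the 54532 genes of the table. A test needed an average of 0.5 FPKM or more across the 10 hearts, which 63 members reached, among 12602 genes in all. The gene families lie on 19 chromosomes, with 0 members on X, Y or the mitochondrial genome.

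All 10 mice were *Rit1* M90I/+, so both groups carried the allele and no heart with wild-type *Rit1* enters the comparison. The allele had been recombined in the germ line by crossing a conditional line with a ubiquitous CMV-Cre deleter, so it is present throughout the animal and not in the heart alone. The Vehicle group (n = 5) received the carrier and the MEKi group (n = 5) received trametinib, an allosteric inhibitor of MEK1 and MEK2, at 1 mg/kg daily, begun when the mice were 4 weeks old and kept up for 20 weeks. Poly(A) RNA of each heart was sequenced, and each column of the table was taken as a separate animal, as the labels number them.

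HSP70 proteins hold unfolded stretches of other proteins in an ATP-driven cycle. DNAJ proteins, the HSP40 family, bring them their clients and start ATP hydrolysis through the J domain, and the HSP110 proteins exchange the nucleotide afterwards. HSP90 takes over clients near their folded state, many kinases among them, and the small heat shock proteins hold unfolding proteins without ATP. The ER and the mitochondrion have their own HSP70, HSP90 and DNAJ members, and the mitochondrion has the HSP60 and HSP10 chamber encoded by *Hspd1* and *Hspe1*. Working cardiac muscle is known for high levels of small heat shock proteins, which bind sarcomere and cytoskeletal proteins. Heat shock factor 1 drives the heat-inducible members through heat shock elements, and the unfolded protein response drives the ER members through its own elements.

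No member passed the threshold between MEKi-treated and vehicle hearts (limma, adjusted p under 0.05 over all 12602 genes tested). The background was 10 genes, 0.0794% of those tested, among them 3 sex-linked transcripts lower and 1 higher with MEKi. Without X, Y and mitochondrial genes, where no member lies, it was 0 of 12178 genes. The lowest adjusted p of a member was 0.554, for *Dnaja1*. An unadjusted p under 0.05 was reached by 6 members, 3 lower and 3 higher with MEKi, against 960 genes or 7.62% of all genes tested, so 6 of 63 was near the background. With voom on the fragments 0 members passed and 7 reached an unadjusted p under 0.05, beside 962 of all genes tested. The limma count of 6 was 2 without vehicle heart 3 and 3 without MEKi heart 1 or without MEKi heart 4. Over all genes tested these refits gave 1259, 878 and 815, in the same order. The vehicle and MEKi values did not overlap for 1 member, *Dnaja1*, against 1.64% of all genes tested. The heat-inducible members were mostly at lower FPKM in the MEKi group, and their highest values lay mainly in vehicle heart 3.

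FPKM are fragment counts divided by gene length and by a size for each heart, so levels can be compared between genes per length. The scale between hearts depends on the size used, and values on a TPM scale are given where they changed a direction. In vehicle heart 3 the size behind the FPKM was 1.42e+07, below its 15371692 fragments assigned to genes, which raises its FPKM. In vehicle heart 2 it was 1.44e+07, above its 13647167 fragments, and the other hearts went either way. Between 13647167 and 18474002 fragments per heart had been assigned to genes, of which 24.0 to 35.0% were mitochondrial, the highest share in vehicle heart 3. Cardiomyocyte markers (8 of 8 passed the filter) summed to 15166 to 20829 FPKM in vehicle hearts and 14997 to 20526 in MEKi-treated hearts. Skeletal muscle markers (3 of 8 passed the filter) summed to 424 to 587 FPKM in vehicle hearts and 442 to 633 in MEKi-treated hearts. Of these, the fast skeletal myosins *Myh2* and *Myh4* were at 0 in every heart. *Xist* was at 5.16 FPKM or more in every MEKi-treated heart and at most 0.00662 in vehicle hearts, whereas Y-linked *Ddx3y* was at 10.3 to 12.2 FPKM in vehicle hearts and had 0 fragments in MEKi-treated hearts. Atrial markers, lower in the MEKi group for 6 of 6 tested, summed to 2196 FPKM in vehicle heart 4, 842 in vehicle heart 5, 1136 in MEKi heart 2 and 143 to 473 in the other hearts. Treatment and the sex-linked transcripts divided the hearts alike, so their parts in any difference given here cannot be told apart. In whole hearts, fewer cells of a type and less RNA per cell cannot be told apart either.

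Members spanned 3 orders of magnitude in level. The mean over the 10 hearts was at least 100 FPKM for 9 members, 10 to 100 for 21, 1 to 10 for 31 and 0.5 to 1 for 2. The highest were *Hspb7* (722 FPKM), a small heat shock protein of striated muscle, *Hspb1* (475), which encodes HSP27, *Hspa8* (421), the constitutive cytosolic HSP70, and *Hsp90ab1* (417), the constitutive cytosolic HSP90. These 4 genes held 53.0% of the summed FPKM of all members and the top 10 held 81.6%. *Hspb8*, whose product works with BAG3 in removing misfolded proteins, and *Hspb6*, which encodes HSP20, followed. The small heat shock proteins among the members took 48.9 ± 3.16% of member FPKM in vehicle hearts and 46.8 ± 3.03% in MEKi-treated hearts (SD, n = 5 each). The αB-crystallin gene *Cryab* (mean, 1346 FPKM), which the name rule leaves out, is not in this share. The summed FPKM of all members was 3975 ± 462 in vehicle and 3697 ± 69.7 in MEKi-treated hearts. Without vehicle heart 3, which had the highest sum (4698), the vehicle mean was 3794 ± 258 FPKM (SD, n = 4).

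**Figure D1:**
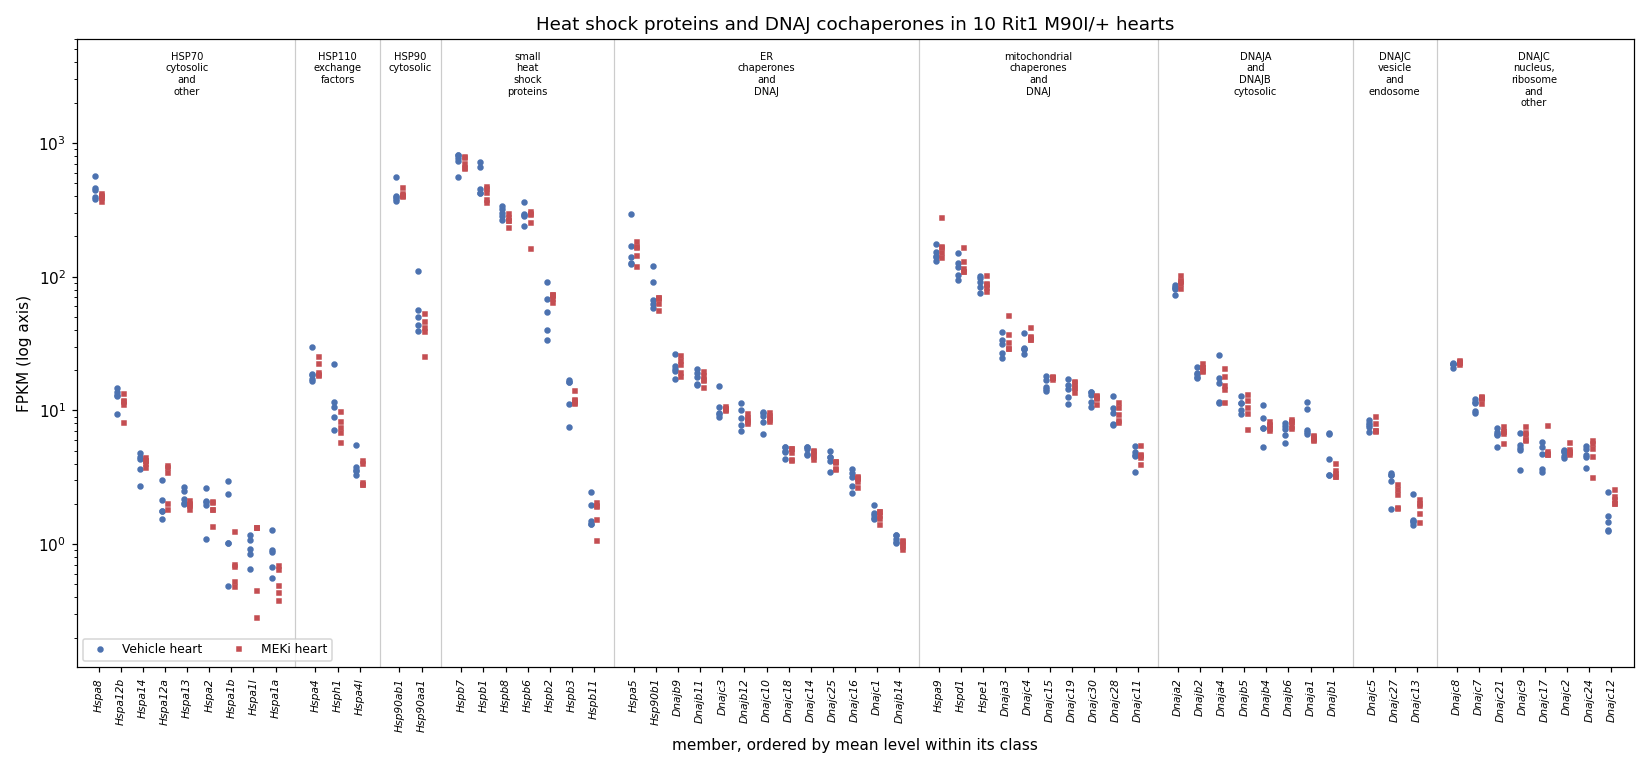
FPKM (log axis) of the 63 members that passed the filter, grouped by class and ordered by mean level, with 5 vehicle hearts as circles and 5 MEKi-treated hearts as squares. *Hspb7*, *Hspb1*, *Hspa8* and *Hsp90ab1* lie at the top, and the heat-inducible *Hspa1a* and *Hspa1b* lie near 1 FPKM.

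The HSP70 class was dominated by the constitutive gene. *Hspa8* was at 446, 393, 569.6, 381 and 464 FPKM in vehicle hearts 1 to 5 and at 393, 401, 413, 359 and 388 in MEKi hearts 1 to 5. The groups overlapped, with vehicle heart 3 above all other hearts. The stress-inducible *Hspa1a* and *Hspa1b* together made up 0.306 to 0.781% of the FPKM of these 3 genes in vehicle hearts and 0.217 to 0.475% in MEKi-treated hearts. This share may be too low, since both transcripts are nearly identical and fragments matching both may not have been counted. In the cytosolic HSP90 pair, the inducible *Hsp90aa1* stood at 0.108 to 0.2001 of the level of *Hsp90ab1* in vehicle hearts and at 0.0627 to 0.116 in MEKi-treated hearts, the highest ratio being that of vehicle heart 3.

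Among the 63 members tested, 38 had a lower and 25 a higher mean log2 level in the MEKi group. Of all genes tested, 52.1% were higher. The median log2 fold change of the members was −0.04, beside 0.01 for all genes tested, on the scale of log2(FPKM + 0.1), which understates changes of low genes. The split depended on the scaling and on vehicle heart 3. On a TPM scale it was 24 lower and 39 higher, where the median of all genes tested moved to 0.09 and 67.5% of them were higher. With voom on the fragments it was 33 and 30, where 59.9% of all genes tested were higher. Without vehicle heart 3 it was 31 lower and 32 higher, where 52.0% of all genes tested were higher. By class, a log2 fold change below 0 was found for 7 of 9 HSP70 genes of the cytosol and other sites, 2 of 3 HSP110 genes, 2 of 2 cytosolic HSP90 genes, 6 of 7 small heat shock protein genes, 11 of 13 ER members, 3 of 10 mitochondrial members, 5 of 8 cytosolic DNAJA and DNAJB genes, 2 of 3 vesicle and endosome DNAJC genes and 0 of 8 other DNAJC genes. On the TPM scale the counts below 0 were 7, 2, 1, 4, 6, 0, 3, 1 and 0 in the same order. The class medians ran from −0.25 for cytosolic HSP90 to 0.12 for the other DNAJC genes. With vehicle heart 3 left out, the median of the HSP90 pair was −0.076, that of the HSP110 genes moved from −0.24 to −0.12, and that of the cytosolic DNAJA and DNAJB genes from −0.03 to 0.11. For the HSP70 genes it moved from −0.19 to −0.087 without MEKi heart 5. The fold changes of members ran from −0.85 for *Hspa1b* to 0.48 for *Hspa12a*.

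**Figure D2:**
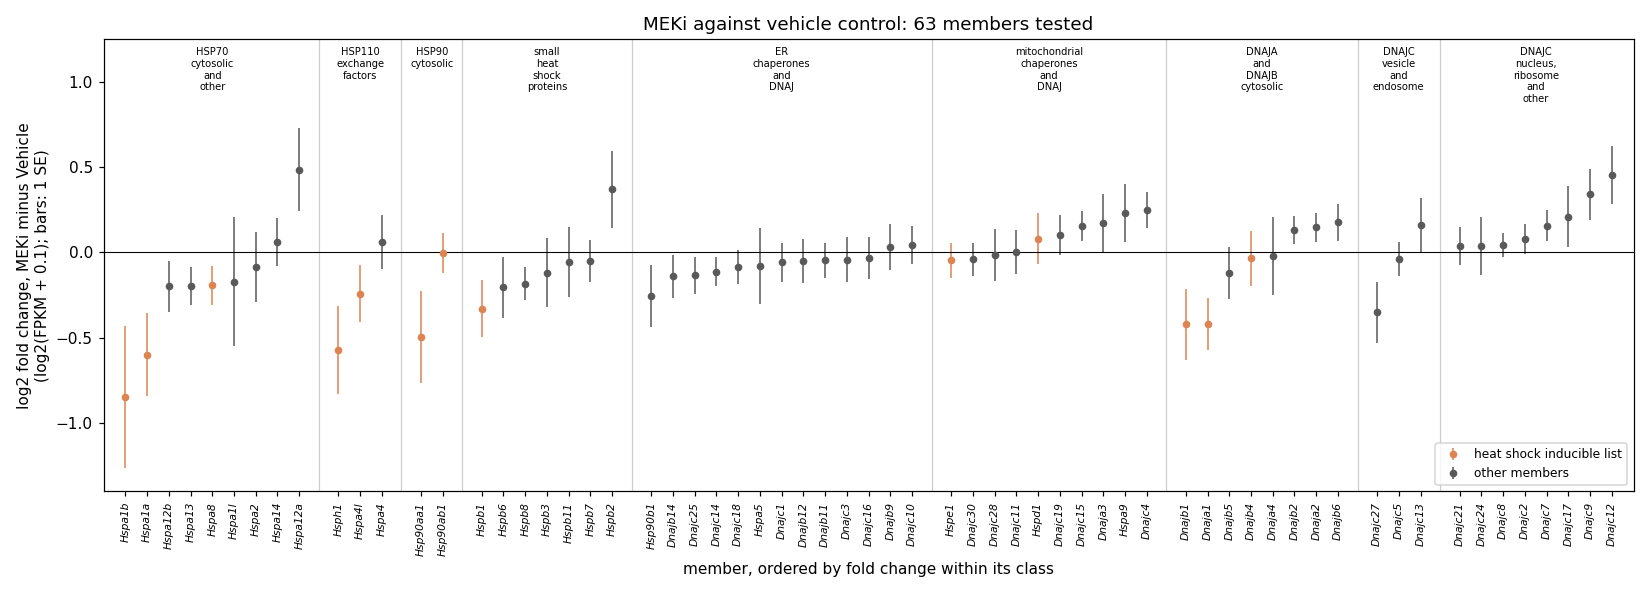
Log2 fold change (MEKi minus Vehicle, on log2(FPKM + 0.1)) of the 63 members tested, by class, with bars of 1 standard error and the heat shock inducible list in orange. The orange points reach down to −0.85, and 12 of 13 lie below 0, while the adjusted p of every member was 0.554 or more.

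The promoters of 58 members were in the RefSeq promoter table (GRCm38.p6), as windows of 300 bases from 250 before to 50 after an annotated start. Heat shock factor 1 binds arrays of the unit GAA in alternating orientation. The letters GAANNTTCNNGAA or their reverse complement TTCNNGAANNTTC, 3 units in a row, were in windows of 4 members, *Dnajb6*, *Hspd1*, *Hspe1* and *Hsph1*, or 8% of the members' 75 windows, and in 0.603% of all 32851 windows. *Hspd1* and *Hspe1* are head to head and overlap by 112 bases, so their windows hold the same site. The shorter GAANNTTC, its own reverse complement and a part of every longer match, was in windows of 14 members, 21.3% of the members' windows and 7.86% of all windows. Of the heat-inducible members, *Hspa8*, *Hsp90aa1* and *Hsp90ab1* had no window, and *Dnajb1*, *Dnajb4* and *Hspa4l* had windows without these letters. Promoters of 3 of the heat-inducible members that held GAANNTTC are shown with the matched letters in capitals, each 5′ to 3′ on the strand of its gene. The values of these 3 members are described next. In *Hspa1b* and *Hspa1a* the 8 letters lie at the same place, 104 bases before the start, and in *Hsph1* the 13 letters lie 36 to 48 bases after it.
*Hspa1b* (chr17:34959189-34959488, minus strand, GAANNTTC in capitals): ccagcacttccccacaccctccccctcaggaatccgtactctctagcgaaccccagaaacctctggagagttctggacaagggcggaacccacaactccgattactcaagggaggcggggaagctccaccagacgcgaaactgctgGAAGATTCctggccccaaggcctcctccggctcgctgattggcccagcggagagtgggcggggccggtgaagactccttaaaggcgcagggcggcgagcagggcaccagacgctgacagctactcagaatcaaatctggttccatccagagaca
*Dnaja1* (chr4:40722218-40722517, plus strand, GAANNTTC in capitals): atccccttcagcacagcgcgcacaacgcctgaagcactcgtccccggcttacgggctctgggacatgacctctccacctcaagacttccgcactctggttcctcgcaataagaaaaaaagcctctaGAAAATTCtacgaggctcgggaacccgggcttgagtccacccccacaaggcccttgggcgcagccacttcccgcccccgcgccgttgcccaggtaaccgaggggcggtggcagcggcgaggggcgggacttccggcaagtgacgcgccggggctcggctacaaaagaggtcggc
*Hsph1* (chr5:149636287-149636586, minus strand, TTCNNGAANNTTC in capitals): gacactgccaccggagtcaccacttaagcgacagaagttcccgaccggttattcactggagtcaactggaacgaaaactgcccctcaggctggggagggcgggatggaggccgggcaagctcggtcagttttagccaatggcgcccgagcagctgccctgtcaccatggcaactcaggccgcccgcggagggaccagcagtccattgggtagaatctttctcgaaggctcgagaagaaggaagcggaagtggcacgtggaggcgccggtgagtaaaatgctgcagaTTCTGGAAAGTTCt

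The heat shock inducible list holds 13 members known to be raised by heat. In the MEKi group 12 of them were lower and 1, *Hspd1*, was higher, 0 passed the threshold, and the median log2 fold change was −0.33, beside −0.02 for the other 50 members and 0.01 for all genes tested. Without vehicle heart 3 the median was −0.22, with 10 of 13 lower. On a TPM scale, where 67.5% of all genes tested were higher, 9 of 13 were lower. An unadjusted p under 0.05 by limma was reached by *Hspa1a*, *Hsph1* and *Dnaja1*, beside the background of 7.62%. Without vehicle heart 3 it was reached by *Dnaja1* alone, beside 1259 of all 12602 genes tested.

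*Hspa1b* (chromosome 17, 34956436 to 34959238, minus strand) encodes the inducible HSP70, and its promoter is the first of those shown. It was at 0.488, 1.01, 2.99, 1.02 and 2.38 FPKM in vehicle hearts 1 to 5 and at 0.479, 1.23, 0.704, 0.519 and 0.681 FPKM in MEKi hearts 1 to 5. Vehicle hearts 3 and 5 were above all other hearts, vehicle heart 1 lay among the MEKi-treated hearts, and the groups overlapped. MEKi-treated hearts differed by a log2 fold change of −0.85 ± 0.42 (SE, adjusted p = 0.665 by limma), and by −0.57 without vehicle heart 3. Its values rest on 23 to 119 fragments per heart.

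Its neighbour *Hspa1a* (chromosome 17, 34969190 to 34972156, minus strand), 9951 bases away, encodes a nearly identical protein. Vehicle hearts 1 to 5 were at 0.881, 0.678, 0.901, 0.557 and 1.27 FPKM and MEKi hearts 1 to 5 at 0.374, 0.687, 0.643, 0.48998 and 0.429 FPKM, from 19 to 55 fragments per heart. Vehicle heart 5 was the highest, and 2 vehicle hearts lay within the range of the MEKi group. This is a log2 fold change of −0.60 ± 0.24 (SE, adjusted p = 0.599 by limma). The transcripts of both genes are 99.01% identical over 2215 aligned bases, with an unbroken run of 638 bases, so their split of fragments is uncertain. Their summed level is uncertain too, since fragments matching both may not have been counted.

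*Hsph1* (chromosome 5, 149614287 to 149636376, minus strand) encodes HSP110, the nucleotide exchange factor of cytosolic HSP70. It was at 11.5, 8.89, 22.1, 7.13 and 10.6 FPKM in vehicle hearts and 8.23, 6.82, 7.42, 5.68 and 9.67 FPKM in MEKi-treated hearts. Vehicle heart 3 had 1.92 times the level of the next heart, and vehicle hearts 2 and 4 lay within the MEKi range. On the log2 scale the difference was −0.57 (SE 0.26, limma adjusted p = 0.647), or −0.33 without vehicle heart 3, a change of more than 1.5 times. Its relatives *Hspa4* and *Hspa4l*, of the same HSP110 class, had log2 fold changes of 0.06 and −0.24. Leaving out vehicle heart 3 gave 0.21 and −0.12, and *Hspa4* was at −0.014 without MEKi heart 5.

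*Hsp90aa1* (chromosome 12, 110690605 to 110702728, minus strand), the inducible cytosolic HSP90, was at 56.7, 43.7, 110.5, 39.6 and 50.1 FPKM in vehicle hearts and 45.8, 41.4, 38.5, 25.3 and 52.8 FPKM in MEKi-treated hearts. Vehicle heart 3 was again at 1.95 times the next heart, and MEKi heart 4 was the lowest. Its log2 fold change was −0.49 (SE 0.27, limma adjusted p = 0.707) with all hearts and −0.25 without vehicle heart 3. The constitutive *Hsp90ab1* was at 402, 383, 552, 367 and 394 FPKM in vehicle and 417, 401, 391, 403 and 457 FPKM in MEKi-treated hearts, a log2 fold change of −0.01 that was 0.10 without vehicle heart 3.

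*Dnaja1* (chromosome 4, 40722150 to 40737149, plus strand) encodes a farnesylated cytosolic HSP40 that works with HSC70. It was at 6.85, 6.62, 11.6, 7.09 and 10.2 FPKM in vehicle hearts and at 6.403, 5.98, 5.89, 6.36 and 6.08 FPKM in MEKi-treated hearts. Every vehicle heart was above every MEKi-treated heart, with vehicle hearts 3 and 5 highest. The group means were 8.47 ± 2.27 and 6.14 ± 0.227 FPKM (SD, n = 5), and the log2 fold change was −0.42 (SE 0.15, limma adjusted p = 0.554). It was −0.30 without vehicle heart 3. The gene shares 608 of its 8629 exonic bases with *Smu1* on the opposite strand, and *Smu1* had a log2 fold change of 0.07. The strand setting of the counting was not given in the sources used here.

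*Dnajb1* (chromosome 8, 83608193 to 83612653, plus strand) encodes HSP40, the main J-domain partner of inducible HSP70. It was at 3.302, 3.27, 6.76, 4.304 and 6.65 FPKM in vehicle hearts and 3.35, 3.96, 3.53, 3.16 and 3.18 FPKM in MEKi-treated hearts. As with *Hspa1b*, vehicle hearts 3 and 5 were highest. Vehicle heart 4 was also above every MEKi-treated heart, and vehicle hearts 1 and 2 lay within the MEKi range. Its log2 fold change was −0.42 (SE 0.21, limma adjusted p = 0.665). *Dnajb4*, a close relative, was at 7.97 ± 2.09 FPKM in vehicle and 7.57 ± 0.457 FPKM in MEKi-treated hearts (n = 5, SD). Its log2 fold change of −0.04 was 0.09 without vehicle heart 3.

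*Hspb1* (chromosome 5, 135887919 to 135889563, plus strand), both a small heat shock protein and a target of heat shock factor 1, was at 659, 422, 716, 419 and 455 FPKM in vehicle hearts and 455, 424, 376, 358 and 465 FPKM in MEKi-treated hearts. Vehicle hearts 1 and 3 were far above the other 8 hearts, which ranged from 358 to 465 FPKM. Its log2 fold change was −0.33 (SE 0.17, limma adjusted p = 0.6703), or −0.22 without vehicle heart 3. The window of *Hspb1* held GAANNTTC at 117 and 97 bases before its start.

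Vehicle heart 3 was the highest of the 10 hearts in 10 of the 13 heat-inducible members, or 76.9%. The same heart was highest in 16 of the 50 other members tested, or 32.0%, and in 17.1% of all genes tested. Vehicle heart 5, high for *Hspa1a*, *Hspa1b*, *Dnaja1* and *Dnajb1*, was highest in 1 of the 13 and in 16.0% of all genes. The summed FPKM of the heat-inducible members was 1824, 1468, 2251, 1439 and 1583 in vehicle hearts and 1552, 1492, 1433, 1376 and 1658 in MEKi-treated hearts. Vehicle hearts 1 and 3 were above every MEKi-treated heart, and the other vehicle hearts lay within the MEKi range. This sum includes *Hspb1* and the constitutive *Hspa8* and *Hsp90ab1*, which are among the 4 most abundant members. All 7 macrophage markers had a lower mean log2 level in the MEKi group. In vehicle heart 3, these markers summed to 106 FPKM (other vehicle hearts, 122 to 187, MEKi-treated hearts, 102 to 121), erythroid markers to 2903 (all hearts, 2899 to 25874) and cardiomyocyte markers to 16872. The part of these cell types, of the mitochondrial share of 35.0% and of RNA quality in the values of that heart was not tested.

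**Figure D3:**
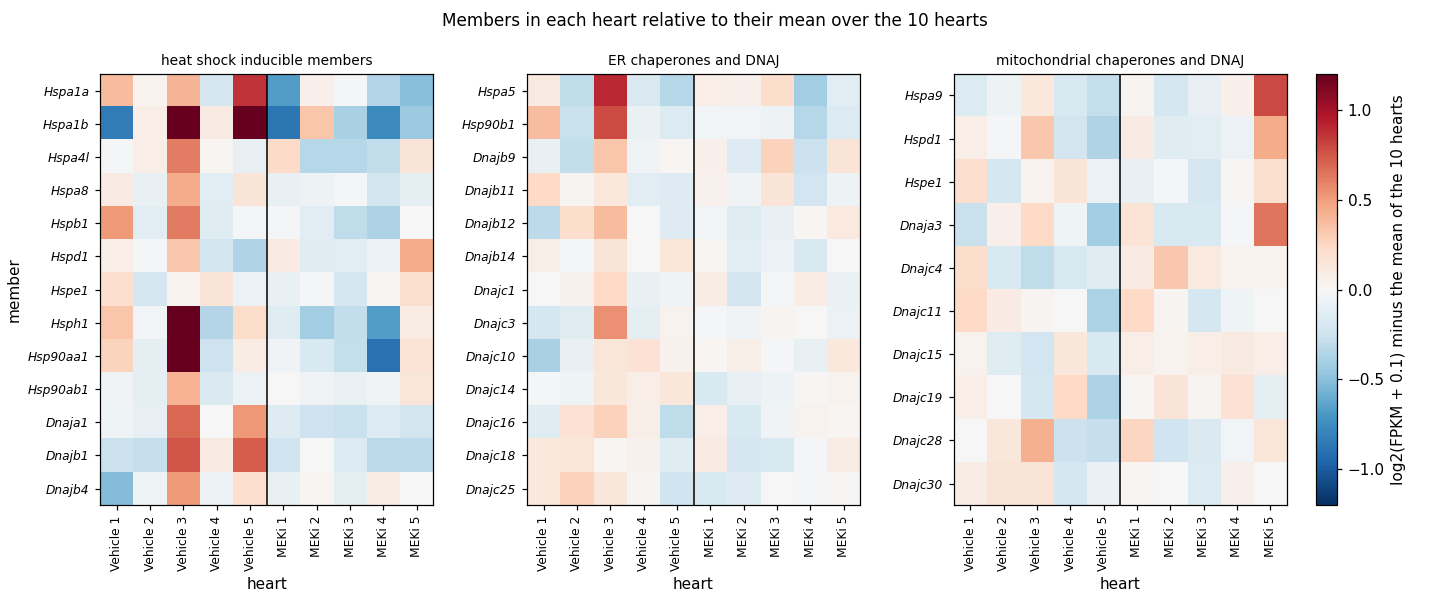
Log2(FPKM + 0.1) of each member minus its mean over the 10 hearts (colour, red above and blue below the mean) for the heat shock inducible list, the ER members and the mitochondrial members, with a line between vehicle and MEKi-treated hearts. Vehicle heart 3 is red for most heat-inducible members and for *Hspa5* and *Hsp90b1*, and MEKi heart 5 is red for *Hspa9*, *Hspd1* and *Dnaja3*.

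**Figure D4:**
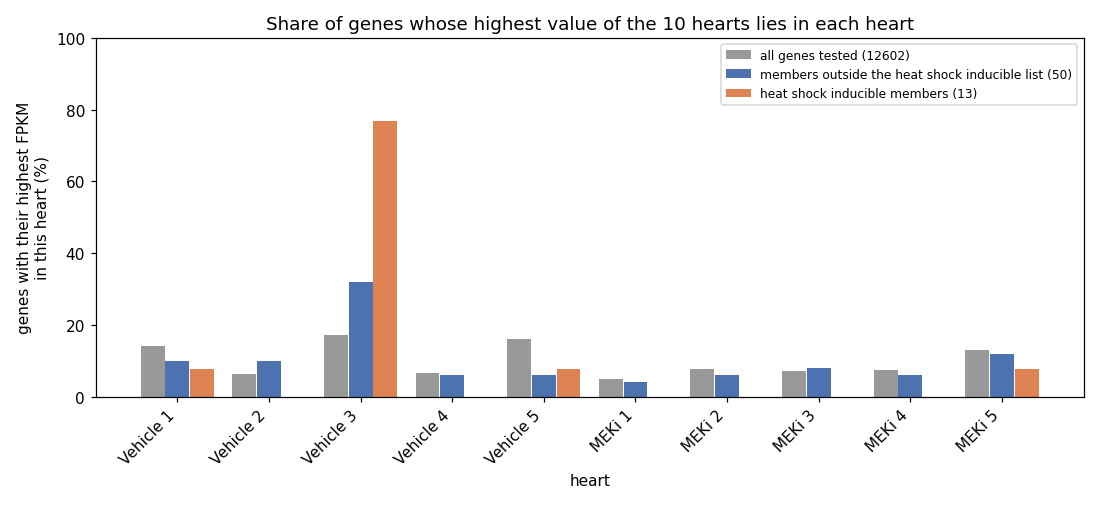
Share of genes (%) whose highest FPKM of the 10 hearts lay in each heart, for the 13 heat-inducible members, the 50 other members tested and all 12602 genes tested. The orange bar of vehicle heart 3 stands at 76.9%, beside 32.0% of the other members and 17.1% of all genes.

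The ER class held 13 members, of which 11 were lower and 2 higher in the MEKi group, 0 passed the threshold or reached an unadjusted p under 0.05, and the median log2 fold change was −0.06. Without vehicle heart 3 the split was 7 lower and 6 higher and the median −0.0062. On a TPM scale the split was 6 lower and 7 higher, where 67.5% of all genes tested were higher. Of the 7 members known to be raised by ER stress, 5 were lower with all hearts and 3 without vehicle heart 3. Activated ATF6 binds the ER stress response element, CCAAT and CCACG with 9 bases between, together with NF-Y. These letters, on either strand, were in windows of 3 members, *Hspa5*, *Hsp90b1* and *Dnajc3*, or 4% of the members' windows and 0.119% of all windows. Of the other members raised by ER stress, *Dnajb9*, *Dnajb11* and *Dnajc10* had windows without the element, and *Hspa13* had no window. The promoters of *Hspa5* and *Hsp90b1* are shown with the element in capitals. All 3 genes with the element were highest in vehicle heart 3, as were 9 of the 13 ER members in all and 17.1% of all genes tested. A link between element and level was not tested.
*Hspa5* (chr2:34771840-34772139, plus strand, 1 element): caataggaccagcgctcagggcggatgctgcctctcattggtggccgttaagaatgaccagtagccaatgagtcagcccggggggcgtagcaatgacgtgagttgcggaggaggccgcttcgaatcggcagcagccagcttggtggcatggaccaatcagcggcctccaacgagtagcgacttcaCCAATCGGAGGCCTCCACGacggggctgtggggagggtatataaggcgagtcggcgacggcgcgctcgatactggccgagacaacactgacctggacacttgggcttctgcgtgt
*Hsp90b1* (chr10:86705395-86705694, minus strand, 2 elements, the second reversed): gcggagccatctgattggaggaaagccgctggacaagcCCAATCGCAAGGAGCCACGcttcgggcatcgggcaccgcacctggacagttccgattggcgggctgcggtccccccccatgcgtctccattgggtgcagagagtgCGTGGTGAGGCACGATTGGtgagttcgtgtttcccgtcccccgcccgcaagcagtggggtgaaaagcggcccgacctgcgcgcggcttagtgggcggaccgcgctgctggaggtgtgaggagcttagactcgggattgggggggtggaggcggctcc

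*Hspa5* (chromosome 2, 34771970 to 34777547, plus strand) encodes BiP, the HSP70 of the ER. It was at 169.6, 127, 294, 139.7 and 124 FPKM in vehicle hearts and 166, 164, 182, 118 and 143 FPKM in MEKi-treated hearts. Vehicle heart 3 was at 1.62 times the next heart, and the other 9 overlapped. The log2 fold change of −0.08 ± 0.22 (SE, adjusted p = 0.958 by limma) turned to 0.14 without vehicle heart 3. *Hsp90b1* (chromosome 10, 86690209 to 86705509, minus strand), which encodes the ER HSP90 GRP94, was at 91.3, 58.5, 121, 66.7 and 62.95 FPKM in vehicle and 69.02, 68.8, 67.8, 55.6 and 62.9 FPKM in MEKi-treated hearts. Its highest values were in vehicle hearts 3 and 1, and the log2 fold change was −0.25 (SE 0.18, limma adjusted p = 0.777), or −0.09 without vehicle heart 3.

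*Dnajc3*, which encodes the BiP cochaperone p58IPK, was at 8.94, 9.34, 15.2, 9.53 and 10.7 FPKM in vehicle hearts and at 9.85 to 10.6 FPKM in MEKi-treated hearts, again highest in vehicle heart 3. That heart was highest in 9 of the 13 ER members. The J proteins *Dnajb9* and *Dnajb11*, which encode ERdj4 and ERdj3, were at 21.1 ± 3.46 and 17.7 ± 2.05 FPKM in vehicle hearts and at 21.6 ± 3.25 and 17.1 ± 1.72 FPKM in MEKi-treated hearts (n = 5, SD), with overlapping groups. Among ER folding partners outside the name rule, *Hyou1* is an exchange factor of BiP, named here after its values were seen. It was at 11.9 FPKM in vehicle heart 3, 4.97 to 5.52 in the other vehicle hearts and 4.97 to 8.09 in MEKi-treated hearts. Vehicle heart 3 was thus at 1.47 times the next heart.

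The mitochondrial class held 10 members, of which 7 were higher and 3 lower in the MEKi group, with 0 past the threshold and a median of 0.09 on the log2 scale. The median was 0.0095 without vehicle heart 5 and 0.016 without MEKi heart 5. All 10 were higher on a TPM scale, where 67.5% of all genes tested were higher. *Hspa9*, which encodes the matrix HSP70 mortalin, was at 143, 153, 175, 141 and 131 FPKM in vehicle hearts and 163, 138, 149, 167 and 277 FPKM in MEKi-treated hearts. MEKi heart 5 was at 1.58 times the next heart, and the other 9 hearts lay between 131 and 175 FPKM. Its log2 fold change was 0.23 (SE 0.17, limma adjusted p = 0.791), and 0.06 without MEKi heart 5.

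*Hspd1* (chromosome 1, 55077835 to 55088243, minus strand), the HSP60 gene, was at 127, 118, 151, 103 and 93.7 FPKM in vehicle hearts and 129, 109, 109, 115 and 164 FPKM in MEKi-treated hearts, highest in MEKi heart 5. Its head-to-head partner *Hspe1* (chromosome 1, 55088132 to 55091307, plus strand), the HSP10 gene, was at 102, 76.1, 90.7, 98.1 and 83.9 FPKM in vehicle and 82.7, 86.5, 76.7, 88.8 and 101 FPKM in MEKi-treated hearts, with vehicle heart 1 highest. Their log2 fold changes were 0.08 and −0.05, and their 112 shared exonic bases lie on opposite strands. *Dnaja3*, which encodes the mortalin cochaperone TID1, was at 26.95, 33.9, 38.3, 31.3 and 24.5 FPKM in vehicle and 36.4, 28.7, 28.6, 31.9 and 50.7 FPKM in MEKi-treated hearts, with MEKi heart 5 at 1.32 times the next heart.

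MEKi heart 5 was the highest of the 10 hearts in 3 of the 10 mitochondrial members, beside 12.9% of all genes tested, and vehicle heart 5 the lowest in 6 of the 10, beside 17.2%. Vehicle heart 5 also had the highest erythroid (25874 FPKM), macrophage (187), endothelial (224) and fibroblast (256) marker sums of the 10 hearts. In MEKi heart 5, *Lonp1*, the matrix protease, was at 72.1 FPKM (other hearts, 30.3 to 41.4), and *Atf4* and *Ddit3*, transcription factors of the integrated stress response, were at 85.7 and 26.1 FPKM (other hearts, 28.5 to 43.3 and 9.03 to 16.8). These 3 genes are named after their values were seen. That heart also had the lowest cardiomyocyte marker sum of the 10 (14997 FPKM), the lowest *Hspb6* and the lowest *Cryab*, and the part of these and of the markers of vehicle heart 5 in the result was not tested. *Dnajc4*, which encodes a J protein of the mitochondrion, was at 37.8, 28.7, 26.4, 28.6 and 29.6 FPKM in vehicle and 34.98, 41.02, 35.5, 33.6 and 33.8 FPKM in MEKi-treated hearts (log2 fold change 0.25 ± 0.11 SE, adjusted p = 0.619 by limma). Vehicle heart 1 lay within the MEKi range and the other vehicle hearts below it.

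The small heat shock proteins were lower in 6 of 7 tested members, with 0 past the threshold and a median of −0.12 on the log2 scale. On a TPM scale they were lower in 4 of 7, where 67.5% of all genes tested were higher. The median was −0.032 without vehicle heart 1 and −0.040 without MEKi heart 5. *Hspb7* (chromosome 4, 141420779 to 141425311, plus strand) was at 767, 818, 730.1, 807 and 561 FPKM in vehicle hearts and 698, 768, 651, 781 and 639 FPKM in MEKi-treated hearts, and the groups overlapped almost wholly (log2 fold change −0.05). *Hspb8* was at 300.2 ± 28.2 and 264 ± 22.7 FPKM (SD, n = 5 each; log2 fold change −0.18). *Hspb6* was at 294 ± 45.05 and 259.5 ± 59.4 FPKM, with MEKi heart 5 lowest at 159.8.

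*Hspb2* (chromosome 9, 50751078 to 50752354, minus strand), a muscle small heat shock protein, was at 91.999, 54.1, 33.9, 68.5 and 39.8 FPKM in vehicle hearts and 71.6, 67.6, 63.8, 73.3 and 73.3 FPKM in MEKi-treated hearts. The vehicle hearts spread on both sides of the narrow MEKi range, with vehicle hearts 3 and 5 lowest. Its log2 fold change was 0.37 (SE 0.23, limma adjusted p = 0.741), and 0.20 without vehicle heart 3. The gene shares 252 of its 834 exonic bases with *Cryab* on the opposite strand, which was far higher (mean, 1346 FPKM), so its fragments are uncertain. *Hspb3*, another muscle member, was at 7.57 to 16.9 FPKM in vehicle and 11.2 to 14.04 FPKM in MEKi-treated hearts. *Hspb11*, an intraflagellar transport protein counted with the family by name, was at 1.72 FPKM on average.

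The remaining HSP70 genes were low. *Hspa12a* (chromosome 19, 58795751 to 58860984, minus strand), a distant HSP70 relative, had the largest positive fold change of the members. It was at 2.13, 1.77, 1.78, 1.54 and 2.996 FPKM in vehicle and 1.801, 3.42, 3.82, 3.75 and 1.998 FPKM in MEKi-treated hearts, where hearts 2, 3 and 4 were above every vehicle heart and hearts 1 and 5 were not (log2 fold change 0.48 ± 0.24 SE, adjusted p = 0.6699 by limma). Its relative *Hspa12b*, known from endothelium, was at 12.7 ± 2.0001 and 11.1 ± 1.96 FPKM (SD, n = 5 each; log2 fold change −0.20, −0.30 without vehicle heart 3 and −0.087 without MEKi heart 5), while the 8 endothelial markers, 7 of them lower in the MEKi group, summed to 135 to 224 and 135 to 169 FPKM. The part of endothelial content in *Hspa12b* was not tested.

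Outside the heat-inducible list, the cytosolic DNAJA and DNAJB genes had no unadjusted p under 0.05. *Dnaja2*, the most abundant J protein transcript, was at 72.98, 84.3, 87.3, 81.5 and 82.5 FPKM in vehicle and 90.7, 80.5, 87.9, 93.1 and 101 FPKM in MEKi-treated hearts (log2 fold change 0.15, SE 0.09), and the groups overlapped. *Dnajb2*, which sorts ubiquitinated clients to the proteasome, had a log2 fold change of 0.13, and *Dnajb6*, which keeps aggregation-prone proteins soluble, of 0.18. The values of *Dnaja1* and *Dnaja2*, of the same subfamily, thus lay on opposite sides of 0, and the difference between them was not tested.

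All 8 DNAJC genes of the nucleus, ribosome and other sites had a log2 fold change above 0, beside 52.1% of all genes tested. The fold changes were 0.04 to 0.45 (median 0.12), with 0 past the threshold. Taken singly, 0 of the 8 genes had groups without overlap, beside 1.64% of all genes tested. Their summed FPKM was 62.9, 58.3, 57.1, 60.9 and 62.8 in vehicle and 64.4, 65.7, 65.3, 66.5 and 65.9 in MEKi-treated hearts, where the lowest MEKi-treated heart was above the highest vehicle heart. As a share of member FPKM the groups overlapped, at 1.22 to 1.76% in vehicle and 1.72 to 1.83% in MEKi-treated hearts. Without vehicle heart 3 or without MEKi heart 5, 7 of the 8 were higher. *Dnajc8*, a splicing-related J protein and the most abundant of the 8, had the smallest coefficient of variation (SD over mean) of the 63 members tested within the vehicle group (3.17%), at 22.01 ± 0.698 FPKM, and was at 22.7 ± 0.494 FPKM in MEKi-treated hearts (n = 5, SD). *Dnajc7*, which bridges HSP70 and HSP90, was at 10.9 ± 1.15 and 12.2 ± 0.594 FPKM.

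*Dnajc12* (chromosome 10, 63382443 to 63410576, plus strand), a cochaperone of aromatic amino acid hydroxylases, was at 1.29, 1.46, 1.26, 2.44 and 1.63 FPKM in vehicle and 2.55, 2.005, 2.01, 2.14 and 2.26 FPKM in MEKi-treated hearts. Vehicle heart 4 lay inside the MEKi range and the other vehicle hearts below it (log2 fold change 0.45 ± 0.17 SE, adjusted p = 0.562 by limma). *Dnajc9*, a histone chaperone, was at 6.78, 5.52, 3.61, 5.23 and 5.09 FPKM in vehicle and 5.99, 6.82, 5.901, 7.48 and 6.59 FPKM in MEKi-treated hearts, with vehicle heart 3 lowest (log2 fold change 0.34 ± 0.15 SE, adjusted p = 0.626 by limma). Of the vesicle and endosome members, *Dnajc5*, the synaptic vesicle protein CSPα, had a log2 fold change of −0.04. *Dnajc27*, a Rab-like J protein, was at 3.28, 2.94, 3.41, 3.29 and 1.84 FPKM in vehicle and 2.53, 1.87, 1.85, 2.34 and 2.75 FPKM in MEKi-treated hearts (log2 fold change −0.35, limma adjusted p = 0.679), and vehicle heart 5 was the lowest of all.

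The partners of the family were read from 6 lists, in which 0 of 64 genes tested passed the threshold. Of the heat shock factors and their binding protein, 4 of 4 tested had a log2 fold change above 0 (median 0.08). *Hsf1*, the master regulator, was at 4.69, 4.6999, 4.201, 4.04 and 3.77 FPKM in vehicle and 5.301, 4.61, 4.17, 4.35 and 4.402 FPKM in MEKi-treated hearts, so its transcript was not highest in vehicle heart 3. BAG and other exchange factors were higher in 8 of 11 (median 0.10). *Bag3*, the HSP70 exchange factor of the sarcomere, was at 89.96, 92.2, 117, 81.1 and 91.7 FPKM in vehicle, highest in vehicle heart 3, and 75.5, 86.3, 86.5, 95.9 and 66.9 FPKM in MEKi-treated hearts (log2 fold change −0.20). This was −0.12 without vehicle heart 3, −0.13 without MEKi heart 5 and −0.047 without both. With 1 heart left out, the median of the exchange factors ranged from 0.042, without MEKi heart 4, to 0.095.

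HSP90 cochaperones were lower in 11 of 17 (median −0.04), or 6 of 17 on a TPM scale, and the median was −0.0030 without vehicle heart 1. *Ppp5c*, the HSP90-bound phosphatase PP5, was at 25.9, 25.3, 24.1, 23.2 and 22.9 FPKM in vehicle and 26.1, 27.1, 27.4, 27.7 and 25.9 FPKM in MEKi-treated hearts, and every MEKi-treated heart was above every vehicle heart, though the nearest pair, MEKi heart 5 at 25.936 and vehicle heart 1 at 25.926 FPKM, were almost equal (log2 fold change 0.14 ± 0.07 SE, adjusted p = 0.667 by limma). The list of αB-crystallin, mitochondrial HSP90 and the TRiC chaperonin was higher in 8 of 10 (median 0.07), and *Cryab* itself, with a log2 fold change of −0.05, was above every member in level. ER folding and unfolded protein response genes were split 7 lower to 8 higher (median 0.01, from −0.13 without vehicle heart 2 to 0.094 without MEKi heart 4). Mitochondrial proteases and unfoldases were higher in 5 of 7 (median 0.07). *Htra2*, the intermembrane space protease, was at 4.44, 4.61, 4.85, 4.92 and 4.501 FPKM in vehicle and 6.0998, 5.54, 5.36, 6.72 and 6.74 FPKM in MEKi-treated hearts, again without overlap (log2 fold change 0.37 ± 0.09 SE, adjusted p = 0.314 by limma). On the TPM scale 7 of 7 proteases and unfoldases were higher, as were 10 of 10 of the crystallin and TRiC list and 10 of 11 exchange factors, where 67.5% of all genes tested were higher, against 52.1% on the FPKM scale. These 2 partners without overlap stand beside the background of 1.64% of genes without overlap.

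The spread within groups differed. The coefficient of variation of a member had a median of 16.7% over vehicle hearts and 10.02% over MEKi-treated hearts, beside 18.9% and 14.7% for all genes tested. Without vehicle heart 3 and MEKi heart 5 the members' medians were 14.4% and 8.71%. The widest spread was that of *Hspa1b* in the vehicle group, at 66.7%.

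The 9 members under the filter were close to the limit of detection. *Dnajc5g* and *Dnajb8*, both known from testis, had 0 fragments in every heart, where a count of 0 allows up to 3 fragments per heart. *Hspb9*, *Dnajb3*, *Dnajb7* and *Dnajb13*, also testis genes, and *Dnajc5b*, *Dnajc6* and *Dnajc22* had at most 0.385 FPKM in any heart, and no difference between groups was detectable at this depth.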

How the data were processed

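The heart libraries of 5 Vehicle and 5 MEKi mice were used, grouped by the treatment in the labels. The submitters' processing notes name fastp, STAR 2.5, HTSeq 0.6.1 and the build mm10, and the strand setting was not given in the sources used here. The authors deposited FPKM, that is, counts scaled to gene length and to a size for each heart that differed from its assigned fragments. Multiplying FPKM by length gave whole multiples of 1 step per heart for 100% of values (tolerance 0.01), which gave the fragments behind each value. Limits from counts cover counting error only, and the spread between hearts measures these animals only.

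Log2(FPKM + 0.1) of the 12602 genes averaging 0.5 FPKM or more was compared with limma 3.58.1 in R 4.3.3 (lmFit, eBayes with a trend), two-sided, with Benjamini-Hochberg adjustment over all genes and a threshold of 0.05. The script was tested on simulated data. Further values were computed in Python 3.11.15 with pandas 2.3.3 and Biopython 1.88. Gene coordinates are those of GENCODE M21 (GRCm38) for 69 of 72 members. Promoter sequences and motif matches came from RefSeq windows, which 58 members had. Members, lists and tests were chosen with earlier results of these data known.

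Genes named are members with an adjusted p under 0.05 or, at a mean of at least 1 FPKM, without overlap of the groups or among the 3 highest and 3 lowest fold changes, the 2 most abundant per class, the heat shock inducible list, partners that passed or did not overlap, and *Hsf1*, *Bag3* and *Cryab*. Other genes with values (*Dnajc3*, *Dnajc4*, *Dnajc9*, *Dnaja3*, *Dnajb6*, *Dnajb9*, *Dnajb11*, *Hspb3*, *Hspb6*, *Hspb8*, *Hspb11*, *Hspa1l*, *Hyou1*, *Lonp1*, *Atf4*, *Ddit3*, *Dnajc13*, *Dnajc17* and *Smu1*) were chosen after their values were seen. Alternatives were pseudocounts, filters, scalings, moderation, weights, voom on fragments, gene subsets, a replicate block, each heart left out and, added after seeing the data, vehicle heart 3 and MEKi heart 5 left out together.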

Additional observations from a re-analysis of the deposited data

Results flagged for a closer look

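Within each group of 5 hearts, 1 heart stood apart from the other 4 by Dixon's criterion in 17 of 144 groups of values, from 72 genes. These genes include partners such as *Cryab*, so they are not the 72 members. Chance gives about 7.2 at 1 in 20, but genes of the same hearts can vary together, so an excess cannot be judged from it. Of these genes, *Atf4*, *Ddit3*, *Hyou1* and *Lonp1* had been picked for their values, and without them 13 of 136 stood apart, where chance gives 6.8. Others described after their values were seen, such as *Dnajc3* and *Dnajc4*, were kept in that count. Vehicle heart 3 accounted for 7 of those 13.

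Vehicle heart 3 was the highest of its group for *Hsp90aa1* at 110.5 FPKM and for *Hsp90ab1* at 552 FPKM, the cytosolic HSP90 pair. The same heart was highest for the HSP110 genes *Hspa4* at 29.6 FPKM and *Hspa4l* at 5.49 FPKM. In the ER set it was highest for *Hspa5* at 294 FPKM, *Dnajc3* at 15.2 FPKM and *Hyou1* at 11.9 FPKM, and in the endosome set for *Dnajc13* at 2.38 FPKM.

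MEKi heart 5 was the highest of its group for *Hspa9* at 277 FPKM, *Lonp1* at 72.1 FPKM, *Atf4* at 85.7 FPKM and *Ddit3* at 26.1 FPKM. It was the lowest for *Cryab* at 1058 FPKM. Vehicle heart 1 was the highest for *Cryab* at 1618 FPKM and for *Dnajc4* at 37.8 FPKM. *Dnajc4* was also highest in MEKi heart 2 at 41.02 FPKM, and *Dnajc17* in MEKi heart 3 at 7.65 FPKM.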

How the results depend on the processing

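The count of members past the threshold was 0 under each of the 24 alternatives (limma, with 1 to 8 at an unadjusted p under 0.05). The all-gene counts at that unadjusted p are given for some of these alternatives only. The count over all genes, 10 as reported, was 2 with a mean of at least 5 FPKM, 18 with array weights, 0 without X, Y and mitochondrial genes (924 at an unadjusted p under 0.05), 4 with the replicate block and 5 to 13 with 1 heart left out, the 5 without vehicle heart 2. Replicate numbers did not pair the hearts (correlations of −0.154 to −0.0209, with 0 of 5 numbers matching best), and the replicate block called 0 members. Reported medians of −0.04 (members) and 0.01 (all genes) were 0.037 and 0.088 on a TPM scale, where the BAG list moved from 0.10 to 0.17. The all-gene median was 0.034 with a mean of at least 5 FPKM and 0.048 with voom. Leaving out 1 heart gave −0.072 to 0.0095 for members, 0.0046 to 0.013 for all genes and 0.042 to 0.095 for the BAG list. Of 784 refits of 33 named genes, 755 kept their direction and 29, in 9 genes, reversed. Reversed on a TPM scale were *Cryab* (0.030), *Dnajb4* (0.043), *Dnajc5* (0.037), *Hsp90ab1* (0.073), *Hspb7* (0.028) and *Hspe1* (0.031). Array weights reversed *Cryab* (0.016), *Dnajb4* (0.0028), *Hsp90ab1* (0.043) and *Hspa5* (0.057), and voom *Dnajb4* (0.0037) and *Hsp90ab1* (0.033). With vehicle heart 3 and MEKi heart 5 both left out, chosen after seeing the data, *Cryab* was at 0.030, *Dnajb4* at 0.083, *Hsp90ab1* at 0.061 and *Hspa5* at 0.16. With 1 heart left out, the ranges were −0.086 to 0.031 for *Cryab*, −0.17 to 0.088 for *Dnajb4*, −0.050 to 0.098 for *Hsp90ab1*, −0.014 to 0.21 for *Hspa4*, −0.17 to 0.14 for *Hspa5* and −0.024 to 0.17 for *Hspd1*. Leaving out a heart shows only that a value depended on it, and the cause of these changes was not tested. Among the members tested, depth was lowest for *Hspa1l* (11 to 58 fragments per heart), then *Hspa1a* (19 to 55).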
